A study of Mus musculus with 6 samples.

Results

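Mural cells are the pericytes and vascular smooth muscle cells that wrap blood vessels. This account describes 10 genes in common use as their markers, Mcam, Pdgfrb, Cspg4, Rgs5, Kcnj8, Abcc9, Notch3, Acta2, Tagln and Cnn1, in mouse subcutaneous white adipose tissue. They were chosen by name as known markers, though with earlier results of these data known, and all 10 were found, each on 1 line of a table of 40428 features. Gene expression was measured by sequencing ribosomal-RNA-depleted total RNA from 6 mice of the C57BL/6J background, kept at room temperature on regular chow. In 3 mice, called ANKO, Nampt had been deleted with a Cre recombinase driven by the promoter of adiponectin, a gene of adipocytes. Nampt encodes nicotinamide phosphoribosyltransferase, the rate-limiting enzyme of NAD salvage. The other 3 mice were flox/flox controls, which carry the floxed Nampt alleles, and floxed Nampt was also the source of the deletion in ANKO mice. The labels give no age or sex and do not say whether the controls were littermates. The design asks what deleting Nampt in adipocytes does to the RNA of whole subcutaneous fat, and here it is followed in marker genes of another cell type.

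Pericytes sit on capillaries and share a basement membrane with the endothelium, while smooth muscle cells ring arteries and veins and contract. Endothelial cells recruit both with platelet-derived growth factor B, which acts on PDGFRB, and keep them mature through Notch ligands, which act on NOTCH3. In white fat, cells around the vessels have also been described as a source of adipocyte precursors. The contractile genes Acta2, Tagln and Cnn1 are classical targets of serum response factor, which binds the CArG box, and the same genes are used by myoepithelial cells of the mammary gland. Several of the other markers are shared too. Mcam is also made by endothelial cells, Pdgfrb by fibroblasts, and Abcc9 by skeletal muscle.

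The promoter windows of a pair of these genes are shown because their values set the pattern described below: Mcam is the marker that was called between the genotypes, and Acta2 is the most abundant of the contractile markers, whose lowest values were in the same mouse. Each window runs from 250 bases before to 50 bases after the RefSeq gene start on the build GRCm38.p6 and is written 5′ to 3′ on the strand of the gene. In the Mcam window (chr9:44134408-44134707, plus strand) the capitals mark a cAMP response element, TGACGTCA. In the Acta2 window (chr19:34255324-34255623, minus strand) they mark sequences that match the CArG box with 1 mismatch.
Mcam: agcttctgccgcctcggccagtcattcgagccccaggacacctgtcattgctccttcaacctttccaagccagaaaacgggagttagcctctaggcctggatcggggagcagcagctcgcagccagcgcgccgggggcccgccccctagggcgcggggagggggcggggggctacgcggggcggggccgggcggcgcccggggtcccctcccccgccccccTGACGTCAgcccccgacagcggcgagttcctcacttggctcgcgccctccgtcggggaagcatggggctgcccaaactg
Acta2: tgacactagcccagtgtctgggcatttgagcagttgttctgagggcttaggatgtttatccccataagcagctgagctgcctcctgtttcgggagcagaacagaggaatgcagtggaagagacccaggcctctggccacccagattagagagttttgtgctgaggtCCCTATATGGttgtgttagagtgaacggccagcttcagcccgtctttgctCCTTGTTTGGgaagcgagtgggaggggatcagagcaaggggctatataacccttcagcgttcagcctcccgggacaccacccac

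Windows were given for 8 of the 10 markers. On both strands, the cAMP response element stood in the Mcam window alone among these 8, with its first base at position -29 from the gene start, and in 1.79% of 32851 windows of all genes. The same Mcam window held the GC box GGGCGG at 5 positions, a sequence present in 35.7% of all windows. The GC box also stood at 4 positions in Notch3, 2 in Cspg4 and 1 in Abcc9. No window of the 8 held the exact CArG box, which 1.63% of all windows hold. With 1 mismatch allowed it was present in 21.1% of all windows and began at -84 and -34 in Acta2, at -46 in Kcnj8 and, overlapping itself, at -238 and -237 in Cspg4. The motif TGGGAA of the Notch effector RBPJ, found in 25.6% of all windows, began at -27 in Acta2, where it overlapped the second capital stretch, at -221 in Abcc9 and at 1 in Kcnj8. These are matches of letters, not measured binding.

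Total counts ranged from 20419821 to 23860596 in ANKO and from 19748962 to 22588171 in control libraries. Nampt fell to 48.6 ± 1.59 CPM in ANKO, against 87.9 ± 4.77 CPM in control tissue (CPM are read counts set relative to library size after TMM scaling; SD, n = 3 each), and the 2 groups did not overlap. All 6 libraries held 30146 or more counts of Xist and 0 of the Y-linked Ddx3y, the counts of female mice, in which this depot can hold mammary gland. Skeletal muscle RNA varied widely, with a summed level of 20 muscle genes of 19293, 3360 and 117 CPM in ANKO 1 to 3 and 6412, 1631 and 10070 CPM in controls 1 to 3. Genes of the mammary myoepithelium, Krt14, Krt5, Krt17, Oxtr and Trp63, summed to 207, 284 and 198 CPM in ANKO 1 to 3 and to 203, 260 and 52.9 CPM in controls 1 to 3. Control 3 was thus the low library for these. The tissue label was met by 10 adipocyte genes, which summed to 5169 CPM or more in every library.

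Of the 10 markers, Mcam alone fell and none rose. A call here is an adjusted p under 0.05 in edgeR's quasi-likelihood test, adjusted by Benjamini-Hochberg over 19272 genes, and 1.59% of all genes passed it, 0.488% higher and 1.1% lower in ANKO. The 1 call among 10 genes is too few to set against that share. Mcam was also the 1 marker whose groups did not overlap, as was so for 19.4% of all genes (10.2% lower and 9.19% higher in ANKO). It was the 1 marker with an unadjusted p under 0.05, which 12.9% of all genes had. The other 9 had log2 fold changes (ANKO over control) between -0.47 and 0.60, and 6 of the 10 were above 0. The median of the 10 was 0.10, against 0.00068 over all genes tested.

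**Figure D1:**
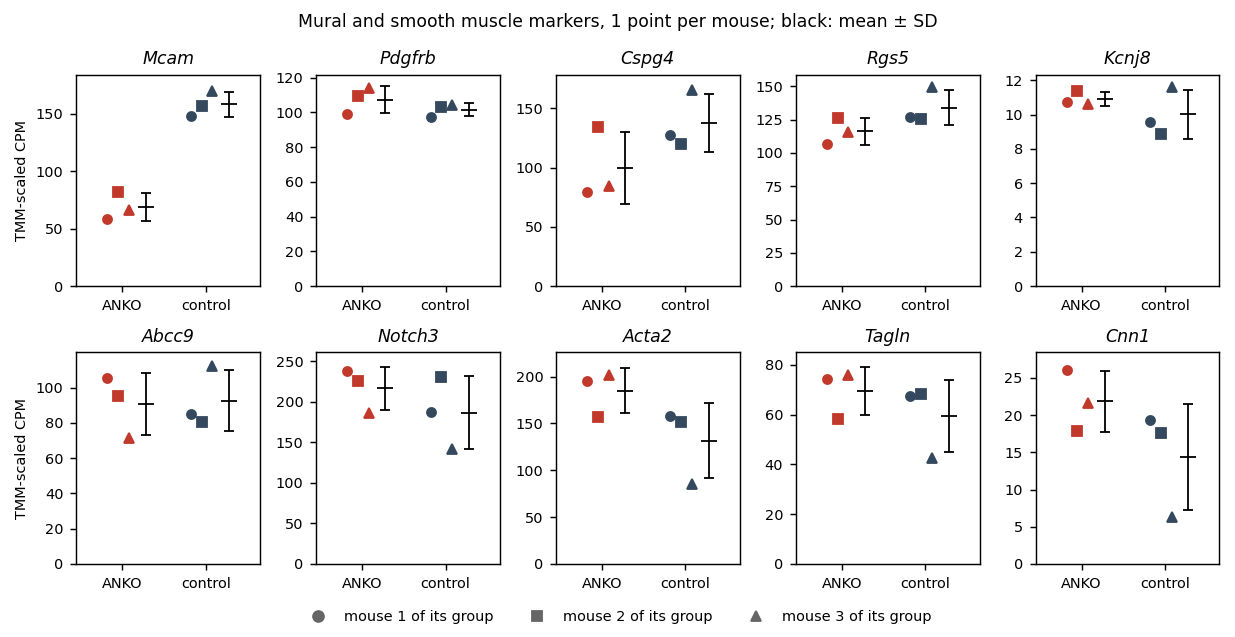
Normalised level (TMM-scaled CPM, each axis from 0) of the 10 markers in each mouse, with ANKO left and control right, symbols for the mice of each group and the mean ± SD in black. The Mcam groups do not overlap, at 58.6 to 81.9 CPM in ANKO and 148 to 169 CPM in control mice, while control 3 is the lowest library for Notch3, Acta2, Tagln and Cnn1.

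Mcam (ENSMUSG00000032135.15, chromosome 9, 44134469 to 44142727, plus strand, protein coding) encodes the melanoma cell adhesion molecule CD146, an immunoglobulin-family adhesion protein of vessel walls. Its level was 58.6, 81.9 and 65.9 CPM in ANKO 1 to 3, against 148, 156 and 169 CPM in controls 1 to 3. Every ANKO mouse was far below every control mouse, and ANKO 2 was the nearest. Means were 68.8 ± 11.9 CPM in ANKO and 158 ± 10.8 CPM in control tissue (SD, n = 3 each). Mcam fell with a log2 fold change of -1.20 (SE 0.129, adjusted p = 0.00717 by edgeR), or 0.435 of the control level with a 95% interval of 0.354 to 0.536. By p, Mcam was number 34 of the 212 genes that fell, and by size of the fall number 113. The call held whichever library was left out, at log2 fold changes of -1.34 to -1.08, with the highest adjusted p = 0.0491 without ANKO 3. Since this is whole tissue, fewer cells that make Mcam and less Mcam RNA per cell cannot be told apart, and the same holds for each gene below.

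An antisense neighbour of Mcam was also lower, and it is named here after its values were seen. By GENCODE M21 positions, Gm10687 (chromosome 9, 44122186 to 44134485, minus strand) begins inside the first bases of Mcam and runs away from it. The pair share 17 exon bases, 0.507% of the exon bases of Mcam. The RefSeq start used for the Mcam promoter window is a different one and lies downstream of these shared bases. The level of Gm10687 was 2.14, 3.51 and 2.42 CPM in ANKO 1 to 3, against 8.06, 8.37 and 10.7 CPM in controls 1 to 3. Every ANKO library was below every control library. It fell with a log2 fold change of -1.74 (SE 0.241, adjusted p = 0.0147 by edgeR), and the call was lost without ANKO 3 or control 2 (highest adjusted p = 0.0812) and when the summed mammary myoepithelial genes entered the fit. Whether the counting used strand is not stated, and reads in the shared bases cannot be assigned to a gene. Counts of the 2 genes otherwise come from separate exons, with 23.3 to 27.3 Mcam counts per Gm10687 count in ANKO and 15.9 to 18.7 in control libraries.

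Unlike Mcam, the pericyte markers Pdgfrb and Cspg4 were not called. Pdgfrb (ENSMUSG00000024620.11, chromosome 18, 61045150 to 61085061), the receptor for platelet-derived growth factor B, had 98.9, 109 and 114 CPM in ANKO 1 to 3 and 97.1, 103 and 104 CPM in controls 1 to 3. ANKO 1 lay inside the control range and the other ANKO mice above it, so the groups overlapped through 1 mouse. Its log2 fold change was 0.083 (SE 0.083, adjusted p = 0.767 by edgeR), with a 95% interval from -0.11 to 0.27 that does not reach the interval of Mcam. Cspg4 (ENSMUSG00000032911.6, chromosome 9, 56865033 to 56899870), the proteoglycan NG2 of the pericyte surface, had 79.7, 134 and 84.6 CPM in ANKO 1 to 3 and 127, 120 and 165 CPM in controls 1 to 3. ANKO 1 and ANKO 3 lay below every control mouse, and ANKO 2 lay among the controls. Its log2 fold change came to -0.47 (SE 0.228, adjusted p = 0.472 by edgeR). It ranged from -0.74 without ANKO 2 (SE 0.15, adjusted p = 0.107) to -0.30 without control 3 (adjusted p = 0.747).

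Signalling and channel markers were not called either. Rgs5 (ENSMUSG00000026678.10, chromosome 1, 169655501 to 169695813), a regulator of G protein signalling and a standard pericyte marker, had 107, 126 and 116 CPM in ANKO 1 to 3 and 127, 126 and 149 CPM in controls 1 to 3. ANKO 2 exceeded the lowest control by less than 1 CPM, so the groups touched. For Rgs5 the log2 fold change came to -0.21 (SE 0.103, adjusted p = 0.469 by edgeR; 95% interval -0.44 to 0.031). Kcnj8 (ENSMUSG00000030247.9, chromosome 6, 142564837 to 142571614) encodes Kir6.1, the pore of the vascular ATP-sensitive potassium channel. It had 10.7, 11.3 and 10.6 CPM in ANKO 1 to 3 and 9.55, 8.87 and 11.6 CPM in controls 1 to 3. The 3 ANKO mice lay inside the control range, with a log2 fold change of 0.12 (SE 0.148, adjusted p = 0.815 by edgeR).

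Abcc9 (ENSMUSG00000030249.15, chromosome 6, 142587862 to 142702315) encodes SUR2, the regulatory subunit that pairs with Kir6.1. It had 105, 95.3 and 71.2 CPM in ANKO 1 to 3 and 85.0, 80.4 and 112 CPM in controls 1 to 3. Its highest libraries, ANKO 1 and control 3, were also the highest in skeletal muscle RNA, and its lowest, ANKO 3, was the lowest. Its log2 fold change stood at -0.029 (SE 0.178, adjusted p = 0.972 by edgeR), and 0.07 (SE 0.117, adjusted p = 0.886) with the muscle signal as a covariate, so Abcc9 has no set direction. The other pair of channel genes, Kcnj11 and Abcc8, were not called. Kcnj11, the pore Kir6.2, had 4.54, 1.21 and 0.697 CPM in ANKO 1 to 3 and 3.55, 2.07 and 2.83 CPM in controls 1 to 3 (adjusted p = 0.878 by edgeR).

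Notch3 (ENSMUSG00000038146.8, chromosome 17, 32120820 to 32166852), the Notch receptor of mural cells, had 238, 225 and 186 CPM in ANKO 1 to 3 and 187, 231 and 142 CPM in controls 1 to 3. Control 3 was the low library and the other controls lay inside or just below the top of the ANKO range. For Notch3 the log2 fold change stood at 0.21 (SE 0.181, adjusted p = 0.716 by edgeR) and 0.061 without control 3. None of the 16 other Notch pathway genes in the list passed the test with edgeR, and their median log2 fold change was 0.0096. Of the 16, 2 had an unadjusted p under 0.05, against 12.9% of all genes. The smallest p was that of Notch4, the endothelial receptor, at 51.5, 54.9 and 50.05 CPM in ANKO 1 to 3 and 62.5, 62.6 and 68.7 CPM in controls 1 to 3 (log2 fold change -0.31, adjusted p = 0.138 by edgeR). Among 10 genes of PDGF signalling none passed and 2 had an unadjusted p under 0.05, against the same 12.9% of all genes. The lowest p there was that of the phospholipase Plcg1, a relay of the receptor (log2 fold change -0.26, SE 0.0749, adjusted p = 0.177 by edgeR). Pdgfb itself, the ligand of PDGFRB and named after its values were seen, had a log2 fold change of 0.056 (adjusted p = 0.892).

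The contractile markers shared a pattern across the mice, and none was called between the genotypes. Acta2 (ENSMUSG00000035783.9, chromosome 19, 34241090 to 34255590, minus strand) encodes smooth muscle alpha-actin and had 195, 157 and 202 CPM in ANKO 1 to 3 and 158, 152 and 85.2 CPM in controls 1 to 3. Tagln (ENSMUSG00000032085.5, chromosome 9, 45929619 to 45936058), the actin-binding transgelin or SM22, had 74.2, 58.2 and 75.7 CPM in ANKO 1 to 3 and 67.3, 68.1 and 42.6 CPM in controls 1 to 3. Cnn1 (ENSMUSG00000001349.5, chromosome 9, 22099216 to 22109630), the contractile regulator calponin, had 26.1, 17.9 and 21.7 CPM in ANKO 1 to 3 and 19.3, 17.5 and 6.29 CPM in controls 1 to 3. In each of these, control 3 was the lowest of the 6 libraries and ANKO 2 the lowest ANKO library. Control 3 stood at 0.55 of the mean of controls 1 and 2 for Acta2, at 0.629 for Tagln, at 0.341 for Cnn1 and at 0.677 for Notch3. For the other 6 markers it was the highest control, at 1.04 times that mean for Pdgfrb to 1.36 times for Abcc9.

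Their log2 fold changes were 0.49 for Acta2 (SE 0.24), 0.22 for Tagln (SE 0.196) and 0.60 for Cnn1 (SE 0.413), with adjusted p = 0.472, 0.727 and 0.642 by edgeR. Without control 3 they were 0.27, 0.047 and 0.26, and none was called. Control 3 was also the lowest library for all 5 mammary myoepithelial genes, of which Krt5 had 44.5, 52.0 and 44.6 CPM in ANKO 1 to 3 and 29.7, 29.2 and 5.51 CPM in controls 1 to 3. Krt5 was not called (adjusted p = 0.561 by edgeR), except without control 3 (log2 fold change 0.69, adjusted p = 0.0466). In the summed level of these 5 genes Oxtr was the largest part, at 104, 175 and 96.1 CPM in ANKO 1 to 3 and 124, 182 and 34.3 CPM in controls 1 to 3. Its log2 fold change was 0.14, against 1.13 for Krt5. A fit with this sum as a covariate was an alternative added once the data had been seen. In it the log2 fold changes were 0.31 for Acta2 (SE 0.169), 0.085 for Tagln (SE 0.157) and 0.34 for Cnn1 (SE 0.254), again uncalled. With the skeletal muscle signal as a covariate they were 0.45 for Acta2 (SE 0.251), 0.19 for Tagln (SE 0.205) and 0.59 for Cnn1 (SE 0.451), also uncalled. The 2 highest Acta2 levels were in ANKO 1 and ANKO 3, the libraries with the most and the least skeletal muscle RNA. The part of either tissue in the contractile values was not tested. By GENCODE M21 the antisense gene Gm48529 covers 62.4% of the exon bases of Tagln. It has no line in the deposited counts, and the annotation and strand setting of the counting are not stated. Whether it affected the Tagln counts is thus not known. Acta2 shares long near-identical stretches with the other actin genes, and reads from those may be split.

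**Figure D2:**
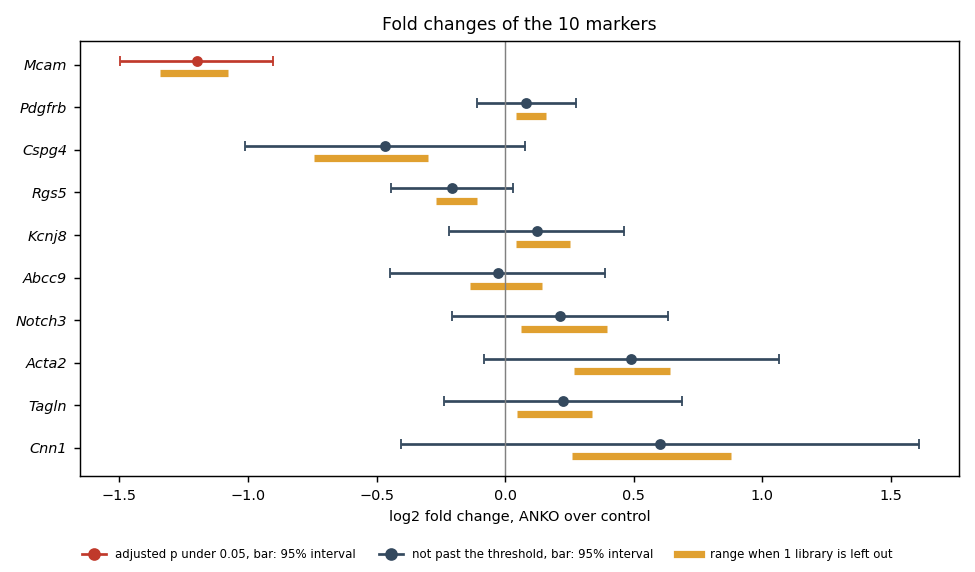
Log2 fold change (ANKO over control) of the 10 markers as points, with 95% intervals from the quasi-likelihood fit, and in orange the range when each library was left out in turn. Mcam, in red, lies at -1.20 and past the threshold, while the intervals of the other 9 reach 0.

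Per kilobase of exon, a scale on which genes can be set against each other, Acta2 was the most abundant marker in both groups, at 84.2 ± 10.96 CPM per kilobase in ANKO and 59.9 ± 18.3 in control tissue (SD, n = 3 each). Mcam stood at 20.5 ± 3.55 CPM per kilobase in ANKO, the fifth of the 10, against 47.2 ± 3.22 in control tissue, the second. In ANKO tissue Tagln (34.9 ± 4.88), Notch3 (26.8 ± 3.31), Rgs5 (25.6 ± 2.19) and Mcam followed Acta2, with Pdgfrb next at 19.6 ± 1.41 CPM per kilobase, and each neighbour in this order overlapped the next except Acta2 and Tagln. Control tissue had the order Acta2, Mcam, Tagln (29.9 ± 7.29), Rgs5 (29.5 ± 2.90), Notch3 (23.1 ± 5.52) and Pdgfrb (18.5 ± 0.686). There Mcam lay above every library of Tagln, and Acta2 overlapped Mcam because of control 3. Cspg4 (8.34 ± 2.54 in ANKO, 11.5 ± 2.05 in control), Abcc9 (10.8 ± 2.10 and 11.1 ± 2.05), Cnn1 (7.996 ± 1.501 and 5.26 ± 2.58) and Kcnj8 (4.27 ± 0.159 and 3.93 ± 0.557) were the least abundant on this scale, with ANKO given before control for each.

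A ratio of 2 genes inside 1 library does not depend on how libraries are scaled, so Mcam was set against each of the other 9 markers. All 9 ratios were lower in every ANKO library than in any control library. There were 0.592, 0.748 and 0.579 counts of Mcam per count of Pdgfrb in ANKO 1 to 3, against 1.53, 1.52 and 1.63 in controls 1 to 3. The smallest difference was against Cspg4, with 0.735, 0.609 and 0.779 in ANKO 1 to 3 and 1.16, 1.30 and 1.03 in controls 1 to 3. On the log2 scale the differences (ANKO minus control) ran from -1.96 against Cnn1 to -0.72 against Cspg4. Each had an exact two-sided permutation p of 0.1 (n = 3 each), the smallest that 3 against 3 can give, and 0.1 after Benjamini-Hochberg adjustment over the 9. Such a design cannot reach 0.05, and the 9 ratios share the Mcam values. Mcam was already the 1 marker whose groups did not overlap, so separated ratios to uncalled genes were likely in advance. How often the ratio of Mcam to any tested gene separates was not computed. The 9 ratios therefore restate the fall of Mcam and show no trait of the other markers.

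**Figure D3:**
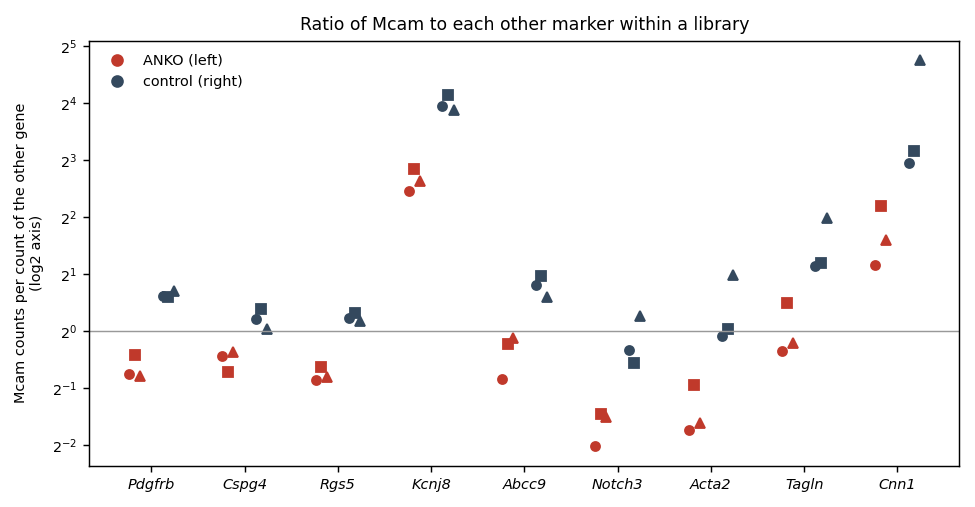
Mcam counts per count of each other marker in each library, on a log2 axis, with ANKO left and control right for each gene and the same symbols for mice as in the plot of levels. For every one of the 9 genes the highest ANKO point is below the lowest control point, most closely for Cspg4, at 0.779 and 1.03.

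Mcam was then set against genes of other cells that make it or that surround it, named after their values were seen. Against the endothelial genes Pecam1 and Cdh5 the ratio was 0.323 to 0.447 and 0.396 to 0.447 in ANKO and 0.718 to 0.889 and 0.702 to 0.808 in control libraries. Mcam was lower relative to both genes in every ANKO library. Against Plin1, the coat protein of the adipocyte lipid droplet, the ratio was 0.170, 0.155 and 0.153 in ANKO 1 to 3 and 0.169, 0.160 and 0.138 in controls 1 to 3, and the groups overlapped. Against the adipokine gene Adipoq it was 0.178 to 0.227 in ANKO and 0.164 to 0.203 in control libraries. These 2 were picked from a list of 10 adipocyte genes, in which their log2 fold changes were -1.24 for Plin1 and -1.39 for Adipoq and the other 8 ranged from -2.60 for Cfd to 0.15 for Slc2a4. The proportion of Mcam to the list as a whole is thus not shown to be steady.

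The 5 genes with the profile nearest to Mcam over the 6 libraries were Mccc2, Ankef1, Arl4a, Trf and Acp5. Likeness was measured as the root mean square difference of log2 CPM after centring each gene, over 16878 other genes whose mean reached 1 CPM. The distances were 0.0459, 0.0519, 0.0747, 0.0799 and 0.0847. Mccc2, a subunit of the leucine-breakdown enzyme methylcrotonyl-CoA carboxylase, had 23.2, 30.3 and 23.5 CPM in ANKO 1 to 3 and 55.5, 58.3 and 61.9 CPM in controls 1 to 3. All 5 were called lower, at log2 fold changes of -1.24 to -1.13, and since the profile of Mcam is itself a difference between genotypes, genes near it must differ too. The nearest marker of the 10 was Cspg4, at 0.388 and number 547, and the farthest was Cnn1, at 1.17 and number 16201.

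The markers were also set against each other. Pdgfrb and Kcnj8 were the closest pair, at a root mean square difference of 0.128, followed by Acta2 and Tagln at 0.16 and Pdgfrb and Rgs5 at 0.167. Acta2 lay 0.27 from Cnn1 and 0.279 from Notch3, but 0.406 to 0.754 from Pdgfrb, Rgs5, Kcnj8, Abcc9 and Cspg4. Mcam lay at least 0.388 from each other marker. These distances rest on 6 libraries, and control 3 is the lowest library of each contractile marker. The 5 genes nearest to Acta2, which were Mex3a, Pcgf2, Arfgef3, Gm10863 and Ttbk1, were at 0.0731 to 0.0934, and Tagln was number 44 and Myh11, the smooth muscle myosin, number 67.

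**Figure D4:**
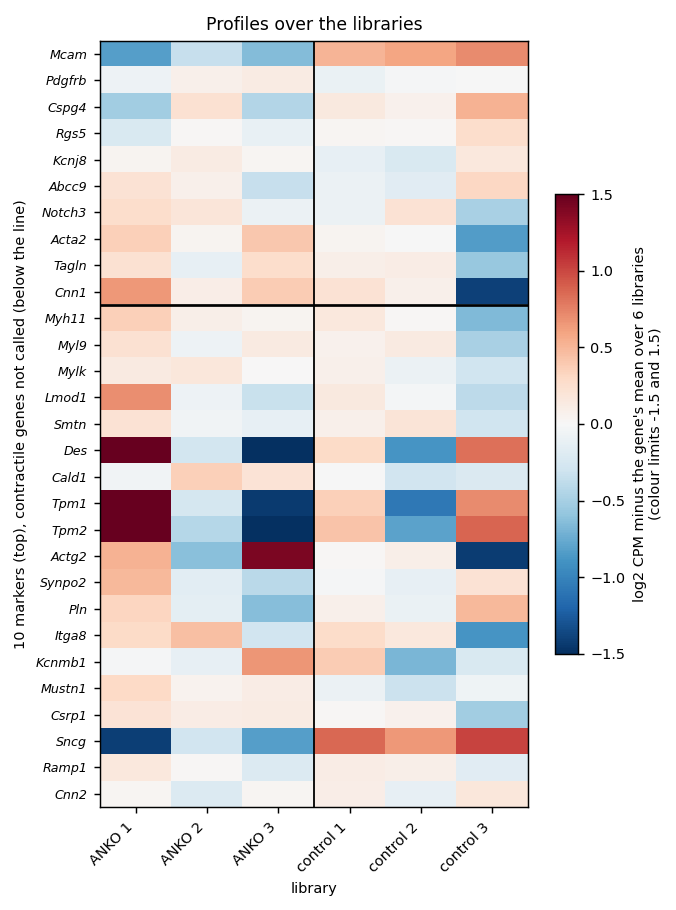
Centred log2 CPM of the 10 markers, above the line, and of the 19 genes of the contractile list that were not called, below it, in each library (ANKO left, control right; colours end at -1.5 and 1.5). Mcam is blue in the 3 ANKO libraries and red in the 3 control libraries, Acta2, Tagln, Cnn1, Myh11 and Myl9 are blue in control 3, and Des, Tpm1 and Tpm2 are reddest in ANKO 1.

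Of 20 further contractile genes of smooth muscle, 9 had their lowest control value in control 3. The share of all genes with their lowest control value there was not computed, so this count shows no pattern of the list. In the comparison of genotypes 1 of the 20 fell, against 1.1% of all genes, and none rose. With 1 library left out, 0 to 2 were called lower. The median log2 fold change of the 20 was 0.24, against 0.00068 over all genes. Without ANKO 1 this median was -0.081, and in every other alternative run it lay between 0.10 and 0.32. Myh11 had 231, 191 and 184 CPM in ANKO 1 to 3 and 201, 182 and 113 CPM in controls 1 to 3 (log2 fold change 0.29, SE 0.214, adjusted p = 0.67 by edgeR; named after its values were seen). Des, Tpm1 and Tpm2, which skeletal muscle also uses, followed its RNA, and Tpm2 had 630, 125 and 42.5 CPM in ANKO 1 to 3 and 225, 96.1 and 306 CPM in controls 1 to 3.

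Of 19 measured pericyte genes 2 fell, against 1.1% of all genes, and none rose, and the median log2 fold change was 0.028. With edgeR 4 of the 19 had an unadjusted p under 0.05, against 12.9% of all genes. Angpt1, the angiopoietin that mural cells supply to the endothelial receptor TIE2, had 6.22, 4.50 and 6.27 CPM in ANKO 1 to 3 and 13.6, 14.1 and 19.6 CPM in controls 1 to 3. The groups did not overlap (log2 fold change -1.48, SE 0.205, adjusted p = 0.0152 by edgeR), and the call was lost without ANKO 2 or ANKO 3 (highest adjusted p = 0.0661). Art3, a surface protein of the ADP-ribosyltransferase family, had 39.8, 49.8 and 44.5 CPM in ANKO 1 to 3 and 93.5, 123 and 153 CPM in controls 1 to 3 (log2 fold change -1.46, SE 0.182, adjusted p = 0.0134 by edgeR). It was not called without ANKO 3 or control 2 (highest adjusted p = 0.0821). Both genes can be expressed outside pericytes, and the remaining 17 pericyte genes had log2 fold changes between -0.45 and 0.47.

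None of 10 other Rgs genes passed the test with edgeR, and 2 had an unadjusted p under 0.05, against 12.9% of all genes. Rgs7bp, not an RGS protein but a membrane anchor of R7 regulators, was listed with them and fell. It had 4.29, 3.59 and 3.903 CPM in ANKO 1 to 3 and 10.9, 9.07 and 12.3 CPM in controls 1 to 3 (log2 fold change -1.45, SE 0.18, adjusted p = 0.0107 by edgeR). The call was lost without ANKO 3 (adjusted p = 0.062). None of 10 genes of serum response factor, its myocardin partners and their actin-linked targets passed, and none had an unadjusted p under 0.05. The smallest p was that of the coactivator Mrtfb (log2 fold change 0.18, SE 0.082, adjusted p = 0.412 by edgeR).

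Cells next to the mural wall were read from the lists of their markers. All 18 endothelial genes had log2 fold changes below 0, at a median of -0.21, against 0.00068 over all genes tested. None passed the test with edgeR and 7 of the 18 had an unadjusted p under 0.05, which 12.9% of all genes had. The smallest p was that of the sphingosine receptor S1pr1, at 103, 104 and 101 CPM in ANKO 1 to 3 and 129, 116 and 141 CPM in controls 1 to 3 (log2 fold change -0.32, SE 0.0898, adjusted p = 0.154 by edgeR). Fibroblast genes had a median of 0.27 over 12 genes (0.11 without ANKO 1) with no call, and the smallest p was that of the proteoglycan Dcn (log2 fold change 0.64, adjusted p = 0.064 by edgeR). Dcn was called higher with upper-quartile scaling, no scaling, no low-count filter and DESeq2, and in no other alternative run. Adipocyte genes had a median of -0.78 over 10 genes with 3 lower, which were Cfd, Adipoq and Plin1. Macrophage genes had a median of 0.77 over 7 genes with 3 higher, which were Adgre1, Gpnmb and Trem2. Over all genes tested, 1.1% were called lower and 0.488% higher. With edgeR an unadjusted p under 0.05 was also found for 4 of the 12 fibroblast, 7 of the 10 adipocyte and 6 of the 7 macrophage genes. The adipocyte calls on Adipoq and Plin1 were lost without ANKO 3 or control 2, and that on Adipoq also without control 3. Both were lost with the mammary covariate (adjusted p = 0.059 for Adipoq and 0.071 for Plin1), and that on Plin1 with the muscle covariate (adjusted p = 0.0597). Of the macrophage calls Adgre1 was lost without control 2, and Gpnmb and Trem2 were each called in 1 of 6 fits with a library left out. Neither Gpnmb nor Trem2 was called with no low-count filter or with the mammary covariate, and Trem2 also not with no scaling, the replicate block or limma-voom. Schwann cell and mammary luminal genes held no call, with medians of 0.11 over 6 genes and -0.15 over 5. Mammary myoepithelial genes had a median of 0.79 over 5 genes (0.35 without control 3), with 4 above 0 and no call. None of the 5 had an unadjusted p under 0.05 with edgeR. Groups did not overlap for 2 of them, Krt14 and Krt5, both higher in ANKO, as was so for 9.19% of all genes. The part of these other cells in the fall of Mcam was not tested.

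**Figure D5:**
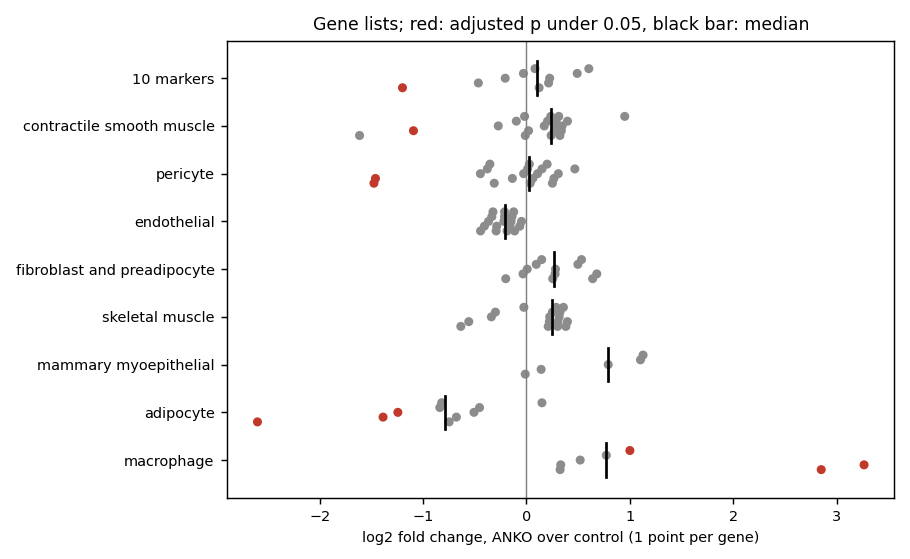
Log2 fold change (ANKO over control) of each tested gene in 9 lists, 1 point per gene, with called genes in red and the median as a black bar. The 10 markers centre at 0.10 with Mcam alone in red, the endothelial genes lie below 0 with a median of -0.21, and the adipocyte genes centre at -0.78.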

How the data were processed

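RNA was sequenced from subcutaneous white adipose tissue of 3 ANKO and 3 control mice, and groups and mouse numbers were taken from the sample titles. The authors deposited raw read counts per gene symbol, 1 column per mouse. STAR 2.0.4b, featureCounts 1.45 and Subread, and the build GRCm38, are named in the submitters' processing notes. For the annotation release and strand setting nothing was given in the sources used here. Of 40757 lines, 329 exact repeats were dropped. The test on these deposited counts was that of edgeR 4.0.16 under R 4.3.3 (filterByExpr with minimum count 10 and minimum total 15, TMM, robust quasi-likelihood test, threshold 0.05). Standard errors were derived from the fold change and its F statistic, and 95% intervals use the total degrees of freedom of the fit. Gene positions and exon lengths came from GENCODE M21. Alternatives were RLE, upper-quartile and no scaling, DESeq2 1.42.0, limma-voom (limma 3.58.1), other filters, no robust weighting, covariates, a block for the replicate number, and each library left out in turn. The markers, lists and tests were chosen with earlier results of these data known. Named genes are the 10 markers, Nampt, from each list the called genes with the smallest p (up to 3) or the 1 with the smallest p, and the 5 nearest profiles. The edgeR p-values set each difference between the groups against the spread between mice, estimated for each gene with help from all genes tested. No pair of libraries held equal counts within sampling noise (chi-square per degree of freedom 33.7 to 97.2). For 1 called gene of the lists, values are not reported here.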

Additional observations from a re-analysis of the deposited data

How the results depend on the processing

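Mcam was called lower, and no other marker was called in either direction, under all 17 alternatives, with Mcam log2 fold changes of -1.34 to -1.08. Abcc9 turned positive with the muscle covariate (0.0699), without ANKO 3 (0.118), without control 3 (0.143) and with the mammary myoepithelial covariate (0.114), which was chosen after seeing the data. With 1 library left out, Abcc9 ranged from -0.135 to 0.143, Kcnj11 from -1.54 to 0.0300, Myh7 from -1.36 to 0.535 and Krt8 from -1.06 to 0.522, and Krt8 was 0.00444 with the replicate block. The cause was not tested. Over all genes, 94 were higher and 212 lower. The higher genes numbered 167 with no low-count filter, 49 with the muscle covariate, 26 with the mammary covariate, 62 with the replicate block and 371 with DESeq2, and 20 to 107 when 1 library was left out. The lower genes numbered 113 with the muscle covariate, 104 with the mammary covariate and 482 with DESeq2, and 55 to 221 when 1 library was left out. For the ratios of Mcam to the other 9 markers, the differences between groups were -2.30 to -0.61 on the log2 scale with 1 library left out. Their sign could not change, because each ratio was lower in every ANKO library than in any control library. Mice with the same number did not deviate together (correlations of 0.0654, -0.0341 and -0.0413), so the numbers give no pairing, and with the replicate block Mcam had a log2 fold change of -1.21 (adjusted p = 0.0174).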
